A study of Mus musculus with 2 samples.

Results

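Zic1, Zic2, Zic5, Sall1, Sall2, Sall3 and Sall4 are developmental zinc-finger transcription factor genes, and their N6-methyladenosine (m6A) sites were examined in native poly(A) RNA of mouse retinal organoids. The 7 genes were chosen by name. A site was a position with at least 20 reads in replicate 2, and the value of replicate 1 was added wherever the same position of the same transcript was listed there. By this rule the genes held 36 of the 16212 sites in replicate 2, on 4 of 4510 transcripts. Sall2 carried 23 of them, Sall1 carried 8 and Zic2 carried 5. Zic1, Zic5 and Sall4 were listed only below 20 reads, and Sall3 was not listed in either replicate.

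Both libraries came from wild-type organoids of the Rx:GFP line at day 6, grown from a mouse cell line in which green fluorescent protein reports Rx, a gene of the early eye field. Every organoid was exposed to AGN at 0.1 µM for the 6 days, so no untreated or mutant group was available and the samples form 1 group with n = 2. Nothing in the labels says whether the replicates were separate cultures, so the spread between them may be technical. The libraries share a batch label. The study asks how METTL3, the enzyme that writes m6A, acts in retinal development, and with 1 group no contrast between conditions was made.

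Zic proteins are relatives of the Gli factors of Hedgehog signalling and act in the dorsal neural tube, forebrain and eye. Zic2 is known for holoprosencephaly when mutated and for guiding retinal axons at the midline. Sall proteins, the vertebrate relatives of fly Spalt, act mainly as repressors and recruit the NuRD histone deacetylase complex. m6A is laid down on nascent mRNA by the METTL3 complex in the DRACH context and is known to affect mRNA stability and translation.

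The tables name 4 motifs, written 5′ to 3′ in DNA letters as deposited, and every value below belongs to one of them. They are shown because the fraction modified differs between them across the transcriptome.
Motif ending in A: GGACA
Motif ending in C: GGACC
Motif ending in T, G first: GGACT
Motif ending in T, A first: AGACT
Over all sites of replicate 2, the median fraction modified was 0.667 at GGACA, against 0.263 at AGACT, 0.231 at GGACC and 0.230 at GGACT. The fraction modified is the deposited share of reads scored as modified, and its denominator is not given. At 5 of the 36 sites it was a whole multiple of 1 over the coverage, within a rounding tolerance of 5e-05 on the fraction, which shows that some covering reads were left out of it, and no interval was set around a single value.

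The listed positions, 36 in replicate 1 and 60 in replicate 2, were unevenly covered. The highest coverage of Sall2 was 20 reads in replicate 1 and 71 in replicate 2, where it lay above 85.2% of genes. For Sall1 the highest coverage was 16 and 30 reads. Zic2 was not listed in replicate 1 and reached 30 reads in replicate 2. Zic5 reached 9 and 17 reads, Zic1 reached 9 and 16 reads, and Sall4 reached 5 reads in replicate 2 alone. Sall2 was thus the deepest and Sall4 the shallowest of the listed genes. In bulk RNA, fewer cells expressing a gene and less RNA per cell cannot be told apart. The listed positions had at least 5 reads and lay in 4 motifs. Why Sall3 was not listed was not tested.

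The tissue label was set against markers read the same way. The eye-field and retinal progenitor genes Rax, Six3, Six6, Lhx2, Pax6, Otx2 and Sox2 were listed in each replicate. Among other cells the aggregates could hold, the telencephalic gene Emx2 was listed with up to 8 and 13 reads. None of the markers fixed for pluripotent cells (4 genes), mesoderm (2), endoderm (2) or neural crest (2) was listed. Zic and Sall genes are expressed in forebrain as well as in the eye, and how much of their RNA came from telencephalic cells was not tested.

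**Figure D1:**
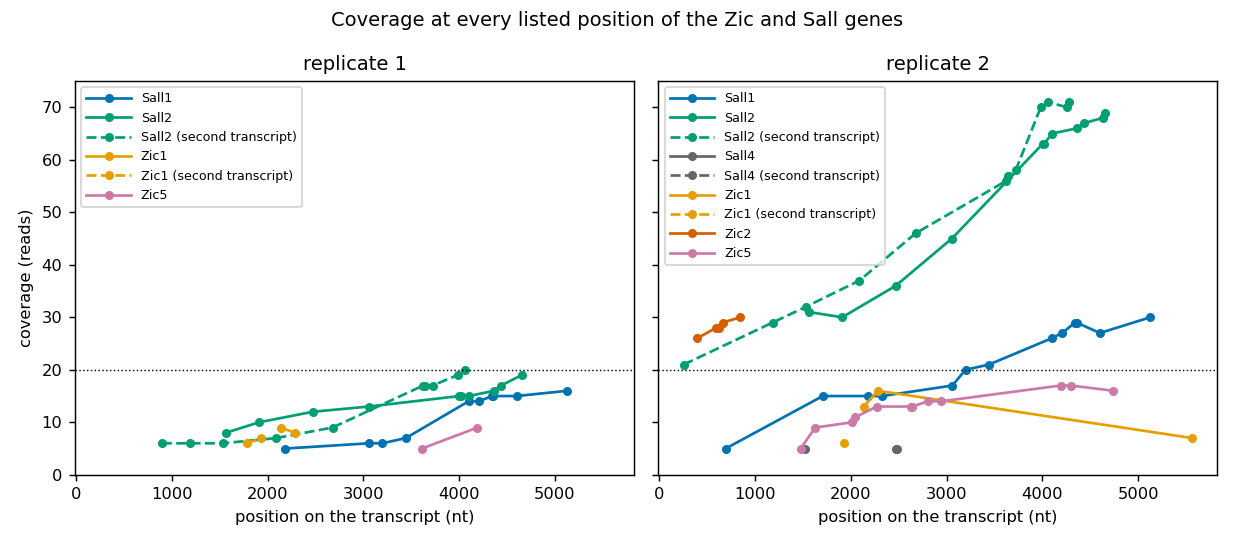
Coverage (reads, vertical axis) at every listed position (nt from the transcript start, horizontal axis) of the 6 listed genes, replicate 1 on the left and replicate 2 on the right; each line is 1 transcript, a dashed line is a gene's second transcript, and the dotted line marks 20 reads. Coverage climbed along Sall1, Sall2 and Zic5, and in replicate 1 a single position, of Sall2, reached 20 reads.

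Coverage rose towards the 3′ end in each transcript of these genes with at least 5 listed positions. Across the 13 positions of Sall1 it went from 5 reads at position 693 to 30 at position 5128 (Spearman's rho = 0.970 in replicate 2). Across the 12 positions of Zic5 it went from 5 reads at position 1476 to 16 at position 4743 (rho = 0.968). Both transcripts of Sall2 behaved alike, from 31 to 69 reads and from 21 to 71 reads (rho = 0.989 and 0.983). The median rho over 4204 other transcripts was 0.894, and it was positive for 85.9% of them. Positions of 1 transcript share reads, so these coefficients are descriptions. Every Sall1 site lay at position 3198 or beyond: position 3198 had 20 reads and entered, while position 3060 had 17 and did not.

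Sall2, a paralogue known for roles in eye morphogenesis and growth control, gave the most complete profile. The gene lies on chromosome 14 from 52548629 to 52566219 in the deposited coordinates, and its sites were listed on the transcripts ENSMUST00000135523.4 (12 sites) and ENSMUST00000058326.4 (11 sites). In number of sites it was exceeded by 3 of the 3919 genes with a site, and by 39 when only the transcript with the most sites was counted for each gene. The positions on the transcripts differed by a constant 379 nt with the same motif at each, so 11 positions were taken as measured on both and the 23 sites as 12 different positions. No transcript sequence was used for this match.

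The highest fractions of Sall2 lay at a GGACC and a GGACT. At the GGACC of position 3722 on ENSMUST00000135523.4 replicate 1 gave a fraction of 1 (17 reads) and replicate 2 gave 0.913 (58 reads), or 0.957 ± 0.0615 (SD, n = 2). The same position on the other transcript, 4101, gave 0.75 over 15 reads and 0.925 over 65 reads (0.837 ± 0.123, SD, n = 2). It was near-completely modified on both transcripts in replicate 2, higher than 97.0% and 97.3% of all GGACC sites there. At the GGACT of position 3984 the fraction was 0.7 over 19 reads and 0.826 over 70 reads, and at its counterpart 4363 it was 0.75 over 16 reads and 0.824 over 66 reads. These values exceeded 93.3% and 93.2% of all GGACT sites in replicate 2, so both positions stand near the top of motifs whose median is about 0.23.

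A further GGACC, at position 2090, had a fraction of 1 (7 reads, replicate 1) and 0.774 (37 reads, replicate 2). On the other transcript its counterpart, 2469, had 0.778 over 12 reads and 0.72 over 36 reads. Position 254, the GGACC nearest the transcript start and the shallowest Sall2 site, was listed in replicate 2 alone, with 0.667 over 21 reads. In replicate 2 these fractions exceeded 92.7%, 91.0% and 88.2% of all GGACC sites. The remaining GGACC, position 3640, was lower: 0.25 over 17 reads and 0.382 over 57 reads, and 0.143 over 15 reads and 0.256 over 63 reads on the other transcript. Sall2 thus held 7 GGACC sites at 4 positions, all above the motif median and 5 of them at 0.5 or more, where 21.4% of all GGACC sites were.

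The AGACT sites of Sall2 were low, and position 4003 had the lowest fraction of the gene in replicate 2. At position 4003 of ENSMUST00000058326.4 the fraction was 0.0714 over 15 reads and 0.0179 over 63 reads, and on the other transcript, at 3624, it was 0.0588 over 17 reads and 0.104 over 56 reads. At position 1910 it was 0.143 over 10 reads and 0.0833 over 30 reads, with 0.2 over 6 reads and 0.111 over 32 reads at the counterpart 1531. All 4 AGACT measurements in replicate 2 were below the motif median of 0.263. Its GGACA site gave 0.714 over 13 reads and 0.452 over 45 reads at 3056, and 0.667 over 9 reads and 0.677 over 46 reads at 2677, on either side of the motif median. A GGACA at position 894 was listed in replicate 1 alone, with a fraction of 1 over 6 reads.

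The other GGACT sites of Sall2 were mostly low. Position 4059, its deepest site together with position 4275 (71 reads each in replicate 2) and the only site of these genes with 20 reads in both replicates, had 0.118 over 20 reads and 0.179 over 71 reads (0.148 ± 0.0431, SD, n = 2). Its counterpart 4438 had 0.267 over 17 reads and 0.12 over 67 reads. Position 1184 had 0 over 6 reads and 0.0833 over 29 reads, and its counterpart 1563 had 0.25 over 8 reads and 0.231 over 31 reads. None of these reached 0.5 in either replicate, and 23.2% of all GGACT sites reached it in replicate 2.

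**Figure D2:**
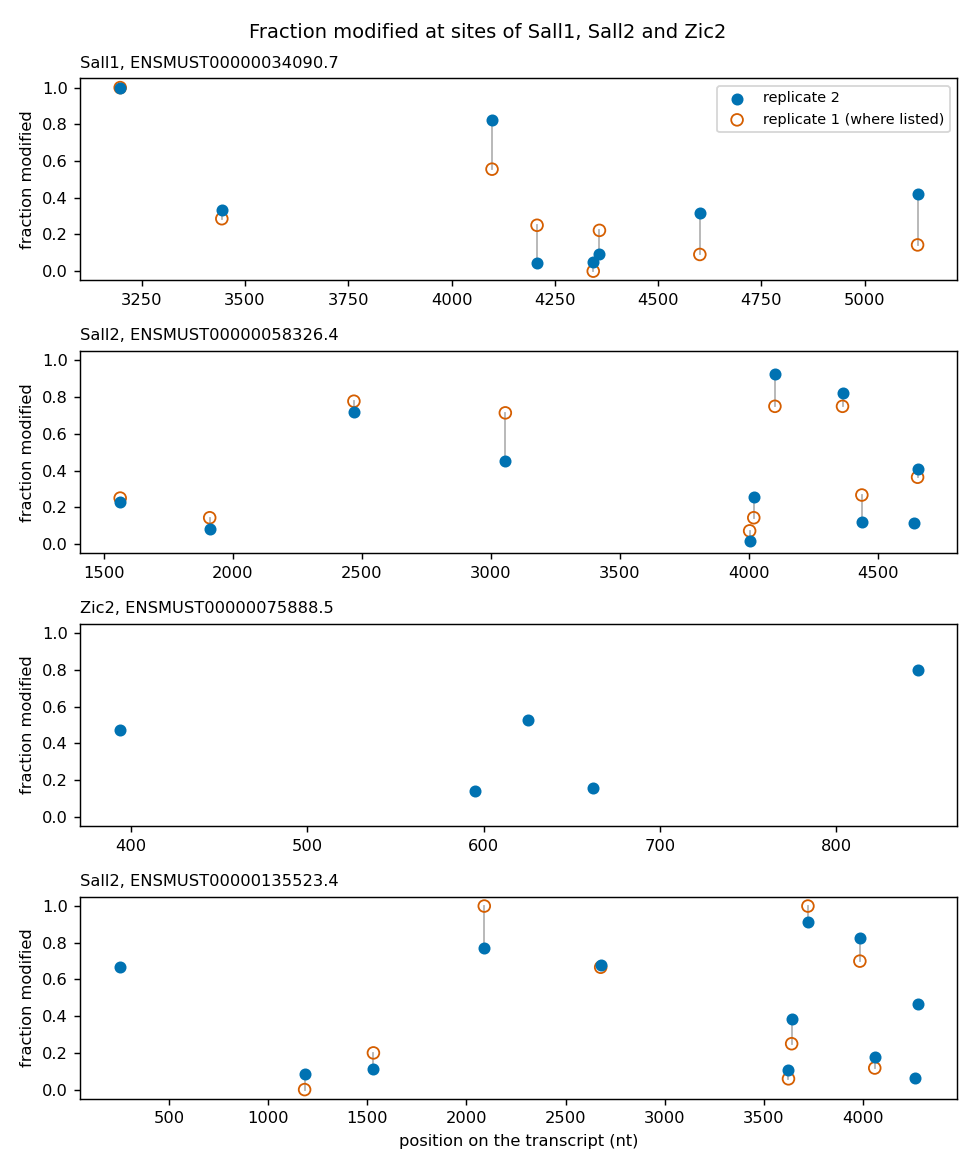
Fraction modified (vertical axis, 0 to 1) at each site by position on the transcript (nt, horizontal axis), 1 panel per transcript; filled points are replicate 2, open circles replicate 1 where listed, and a grey line joins both. High and low fractions occur on the same transcript, such as 0.0179 at position 4003 and 0.925 at position 4101 of Sall2 in replicate 2, and Zic2 has points of replicate 2 alone.

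Neighbouring motifs of Sall2 differed in fraction. The GGACT motifs at positions 4260 and 4275, 15 nt apart, had 0.0652 over 70 reads and 0.467 over 71 reads in replicate 2, a difference of 0.402. On the other transcript the same pair, 4639 and 4654, had 0.113 and 0.410, a difference of 0.297 over 68 and 69 reads. The downstream motif was the higher on both transcripts. In replicate 1 only position 4654 of these was listed, with 0.364 over 19 reads, so the difference has no replicate. The AGACT at 3624 and the GGACC at 3640 lie 16 nt apart, and the GGACC was higher by 0.278 in replicate 2 and 0.191 in replicate 1. On the other transcript it was higher by 0.239 and 0.0715. Over the 203 pairs of 1 motif within 20 nt of each other in replicate 2, the median difference in size was 0.236 (interquartile range 0.106 to 0.437). Over all 735 pairs, of the same or different motifs, it was 0.333 (0.140 to 0.576). Such gaps are therefore common in these data.

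The transcripts of Sall2 gave like fractions at the 11 joined positions. In replicate 2 the median difference in size was 0.0564, and it was 0.0593 over 509 joined positions of 125 other genes treated the same way. The fraction was lower on ENSMUST00000058326.4 at 8 positions and higher at 3. The largest gap, 0.226, was at the GGACA position 2677, with 0.677 against 0.452, and it was the only one of 11 over 0.2, against 39 of 509 in the other genes. In replicate 1, where 9 positions were listed on both transcripts with 6 to 20 reads, the median size was 0.107 3 positions differed by over 0.2, and the fraction was lower on ENSMUST00000058326.4 at 4 positions and higher at 5. At position 2677 the direction was the opposite in replicate 1, by 0.0476. A difference between the transcripts in 1 direction was therefore not seen in both replicates. No joined position had the same fraction and the same coverage on both transcripts, while how reads were assigned between transcripts is not stated.

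**Figure D3:**
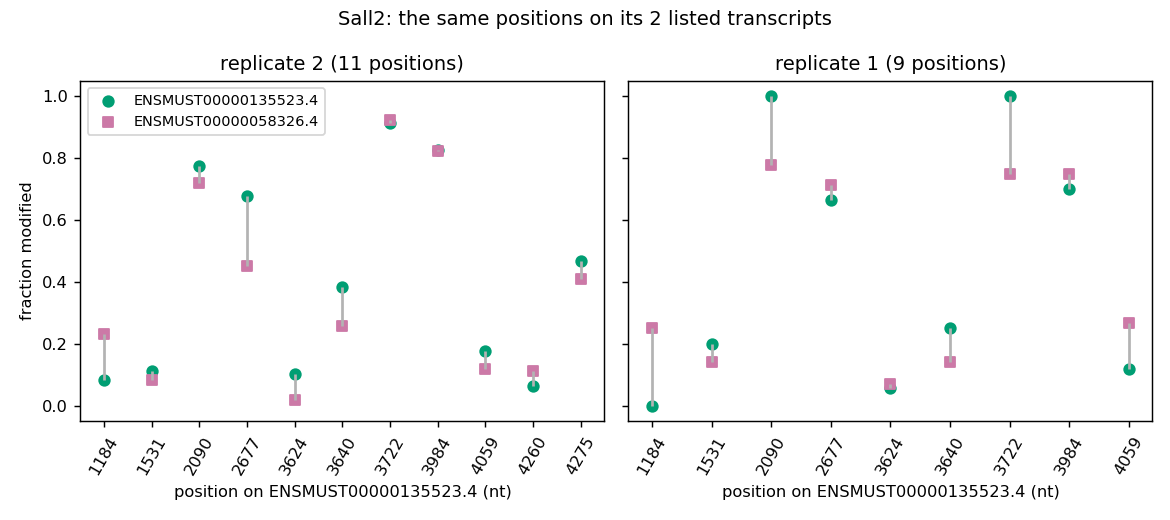
Fraction modified (vertical axis) at the joined positions of Sall2 (horizontal axis, position on ENSMUST00000135523.4 in nt), with circles for that transcript and squares for ENSMUST00000058326.4; replicate 2 with 11 positions is on the left and replicate 1 with 9 on the right. In replicate 2 the symbols lie within 0.2 of each other except at position 2677.

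Sall1, the gene mutated in Townes-Brocks syndrome, lies on chromosome 8 from 89753863 to 89770790 as deposited and was listed on ENSMUST00000034090.7. Its sites comprised 3 GGACA and 5 GGACT. At the GGACA of position 3198 the fraction was 1 in both replicates, over 6 and 20 reads. At position 4098 the GGACA had 0.556 over 14 reads and 0.826 over 26 reads (0.691 ± 0.191, SD, n = 2). The GGACA of position 3444 had 0.286 over 7 reads and 0.333 over 21 reads (0.310 ± 0.0337, SD, n = 2), lower than all but 22.7% of GGACA sites in replicate 2. Sall1 therefore carried the same motif at complete and at low fraction within 246 nt.

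The GGACT sites of Sall1 were below 0.5 in both replicates, as most GGACT sites are: 23.2% of all of them reached 0.5 in replicate 2. At position 4207 the fraction was 0.25 over 14 reads and 0.0435 over 27 reads, the lowest of its sites in replicate 2. At position 4343 it was 0 over 15 reads and 0.0476 over 29 reads. Position 4358, 15 nt further on, had 0.222 over 15 reads and 0.0909 over 29 reads. This pair differed by 0.0433 in replicate 2 and 0.222 in replicate 1. At position 4601 the fraction was 0.0909 over 15 reads and 0.318 over 27 reads. The last and deepest site, 5128, had 0.143 over 16 reads and 0.421 over 30 reads. Their SD over the replicates ran up to 0.197 (n = 2), so the order of these GGACT sites is not settled. All of them lay below the GGACA site at position 3198 in each replicate, but its fraction of 1 is the highest possible, so nothing is drawn from this. The 5 further Sall1 positions, below 20 reads in replicate 2, ran from 0 over 15 reads at position 2182 to 1 over 15 reads at position 1707.

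Zic2 lies on chromosome 14 from 122712847 to 122717264 as deposited, 9758 bases beyond the end of Zic5. Its 5 sites were on ENSMUST00000075888.5 between positions 394 and 846, with 26 to 30 reads in replicate 2 and no listing in replicate 1, so its values have no replicate. The highest was a GGACC at position 846, with 0.8 over 30 reads, above 93.6% of GGACC sites. The GGACC at position 662 had 0.158 over 29 reads. Among its GGACT sites the fraction was 0.471 over 26 reads at position 394, 0.143 over 28 reads at position 595 and 0.529 over 28 reads at position 625. Positions 595 and 625 lie 30 nt apart at equal coverage, and the latter had the higher fraction. Of 283 other transcripts with at least 5 listed positions and a highest coverage of 26 to 30 reads in replicate 2, 13 (4.59%) had no position listed in replicate 1.

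Zic5, a factor of dorsal neural tube and neural crest development, lies on chromosome 14 from 122694207 to 122703089 as deposited. On ENSMUST00000039118.6 it had 12 positions of 5 to 17 reads in replicate 2. Its GGACA at position 4191 had a fraction of 1 in both replicates, over 9 and 17 reads. Position 2643 (GGACA) and position 2805 (GGACC) had 1 over 13 and 14 reads in replicate 2, while 3 positions had 0 over 9 to 13 reads. The GGACT at position 2624, 19 nt before the GGACA at 2643, had 0.25 over 13 reads. Position 3611 was listed in replicate 1 alone, with 0.25 over 5 reads. At this depth the fractions of Zic5 were not ordered.

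Zic1, which acts in cerebellum and forebrain development, was listed on ENSMUST00000034927.12 and ENSMUST00000065360.4, on chromosome 9 from 91240111 to 91247863 as deposited. At the GGACT of position 2284 on the former the fraction was 0.143 over 8 reads and 0.222 over 16 reads. At the AGACT of position 2134 it was 0.667 over 9 reads and 0.2 over 13 reads, the widest gap between replicates among these genes. In replicate 1 the position with the same motif 353 nt earlier on the other transcript, 1781, had 0 over 6 reads. The GGACT at position 1931 of ENSMUST00000065360.4 had 0.2 over 7 reads and 0.4 over 6 reads. The GGACA at position 5564 of ENSMUST00000034927.12 had 0.5 over 7 reads in replicate 2. Sall4, a gene of pluripotent and early embryonic cells on chromosome 2 from 168590252 to 168609863 as deposited, had 3 positions of 5 reads each in replicate 2. Its fractions were 1 at position 1524 of ENSMUST00000075044.9, and 0.25 and 0 at positions 2469 and 2478 of ENSMUST00000103074.1.

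Of the 36 sites, 27 were listed in replicate 1 as well, 19 of Sall2 and 8 of Sall1. All but 1 of them had 6 to 19 reads there. Coverage in replicate 2 was a median of 3.88 times that in replicate 1 for Sall2 and 1.93 times for Sall1, against 2.33 times over all sites listed in both. The median fraction at the 27 sites was 0.25 in replicate 1 and 0.333 in replicate 2. Replicate 2 gave the higher fraction at 15 of them and the lower at 11, and 1 was equal. The median of replicate 2 minus replicate 1 was 0.0454. For all 12121 sites listed in both, replicate 1 had a median of 0.375 and replicate 2 one of 0.357. Replicate 2 was higher at 5415 of these and lower at 6073, with a median difference of -0.0007. The contrast between the 27 sites and all sites was not tested. The differences at the 27 sites ran from -0.263 at position 3056 of Sall2 to 0.278 at position 5128 of Sall1 (SD 0.142).

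Of the 26 sites with fewer than 20 reads in replicate 1, 6 differed by more than 0.2, 4 of them in Sall1 and 2 in Sall2. Over all 6900 such sites the share was 23.1%, which is the share among these genes too. The root mean square difference was 0.142 at the 26 sites, against 0.183 over all such sites. Across the 27 sites the fractions had Pearson's r = 0.907 and Spearman's rho = 0.837, given as a description since sites share transcripts and Sall2 positions enter on both of its transcripts. With 2 replicates, no exact test of a difference between them can reach a low p-value, and none was run.

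**Figure D4:**
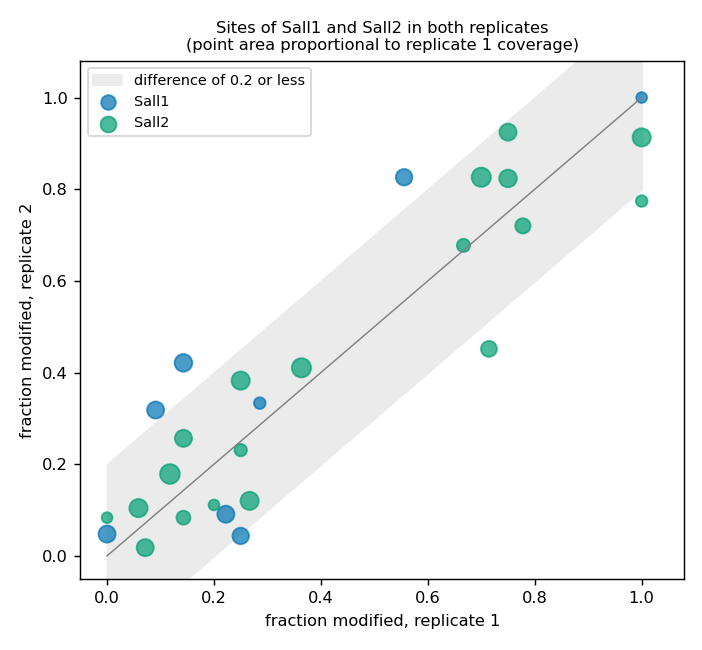
Fraction modified in replicate 1 (horizontal axis) and replicate 2 (vertical axis) at the 27 sites of Sall1 and Sall2 listed in both, with the area of a point proportional to its coverage in replicate 1; the diagonal marks equality and the grey band a difference of 0.2 or less. Of these sites 6 lie outside the band, 4 of Sall1 and 2 of Sall2.

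Set beside all sites, the genes together had a median close to the whole. In replicate 2 it was 0.358 (interquartile range 0.113 to 0.688), against 0.345 (0.15 to 0.673) over all sites. A fraction of 0.5 or more was reached at 12 of 36 sites (33.3%), while 37.5% of all sites reached it. That limit is descriptive and not a call of the authors.

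By motif, GGACT made up 18 of 36 sites (50%), against 24.2% of all sites. GGACA made up 5 (13.9%, against 35.6%), GGACC 9 (25%, against 22.1%) and AGACT 4 (11.1%, against 18.1%). With each Sall2 position counted on 1 transcript, GGACT made up 52% of 25 sites. These counts come from 3 genes, whose sites are not independent, and whether they differ from the whole was not tested.

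Each fraction was then compared with the median of its own motif in replicate 2. The median of this difference was 0.0182 over the 36 sites, and 20 of the sites lay above their motif median (55.6%, against 49.5% of all sites). It was -0.0257 for Sall1, 0.0107 for Sall2 and 0.240 for Zic2. By motif, 8 of 9 GGACC sites, 9 of 18 GGACT, 3 of 5 GGACA and 0 of 4 AGACT sites lay above. The median was 0.0880 at the 25 sites left with 1 transcript per gene, 0.0880 at the 13 sites left without Sall2, and 0.101 at the 14 sites with at least 50 reads.

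**Figure D5:**
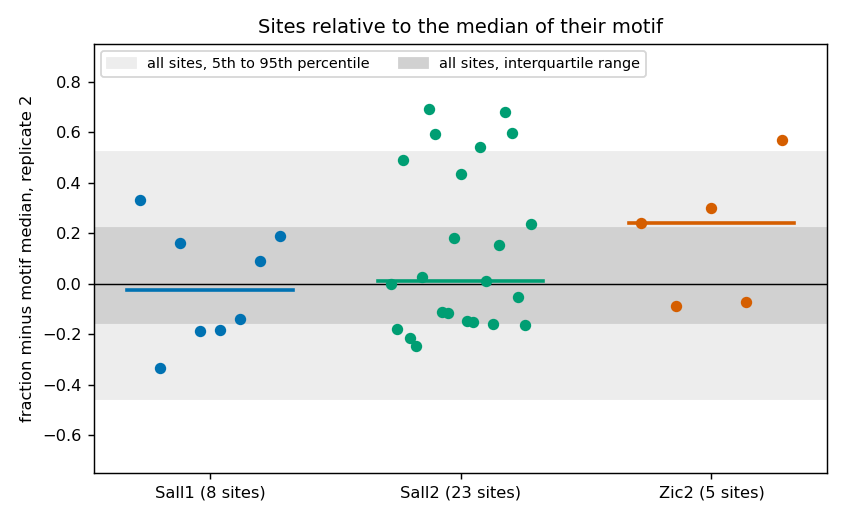
Fraction modified minus the median of the same motif over all sites (vertical axis, replicate 2) for each site of Sall1, Sall2 and Zic2 (points, with a bar at the gene's median); the dark band is the interquartile range of all sites, from -0.157 to 0.222, and the light band their 5th to 95th percentile, from -0.456 to 0.521. Above the light band lie 5 sites of Sall2 at 3 positions and 1 of Zic2. The bands pool all motifs, and a GGACA site, with a motif median of 0.667, cannot rise above the light band. Within their own motif these sites exceeded 92.7% to 97.3% of sites, and only positions 3722 and 4101 of Sall2 passed the 95th percentile.

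Genes with a like profile were found by site count and mean fraction in replicate 2, over 1 library. Sall2 on its transcript with the most sites had 12 sites with a mean of 0.437, and the nearest genes within 2 sites were Gpc1 (11 sites, mean 0.436) and Msantd4 (10 sites, 0.439). Among 157 such genes Sall2 lay at percentile 56.1 for the mean and 73.2 for the SD among sites. Sall1 (8 sites, mean 0.385) was nearest to Lpcat1 (9 sites, 0.385) and Mprip (6 sites, 0.385), at percentile 40.5 for the mean and 80.4 for the SD among 724 genes. Zic2 (5 sites, mean 0.420) was nearest to Srsf7 (3 sites, 0.420) and Armc1 (6 sites, 0.420), at percentile 52.3 for the mean and 41.1 for the SD among 2003 genes. With so many candidates a near match in the mean is common and says nothing of the genes' roles.

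Among related genes of the Zic family and the Hedgehog-Gli pathway, Smo, Gas1 and Sufu had sites. Smo, the pathway's signal transducer, had 10 sites with a median of 0.187 in replicate 2, and 7 of them listed in replicate 1 had medians of 0.182 there and 0.147 in replicate 2. Gas1, a co-receptor for Hedgehog ligands, had 10 sites with a median of 0.359, and the 9 of them listed in both replicates had medians of 0.125 in replicate 1 and 0.333 in replicate 2. Sufu, a Gli inhibitor, had 1 site at 0.8. Gli2, Gli3, Ptch1, Boc and Cdon were listed with at most 5 to 16 reads, and Gli1, Shh and Zic4 were not listed in either replicate. The 21 sites of Smo, Gas1 and Sufu together had a median of 0.25, and 5 reached 0.5 (23.8%, against 37.5% of all sites). Of the 21, 8 lay above their motif median, a lower share than the 49.5% of all sites. Their median relative to the motif was -0.060.

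Among 13 genes of the NuRD complex, which Sall proteins recruit, 9 had a site in replicate 2. Mta1, a scaffold subunit, had 19 sites with a median of 0.231, and Mbd3, a methyl-CpG-binding domain subunit, had 13 with a median of 0.288. The deacetylase gene Hdac2 had 5 sites with a median of 0.370, and the histone-binding gene Rbbp4, the deepest with up to 292 reads, had 4 with a median of 0.252. The 61 sites of the list had a median of 0.288, and 17 reached 0.5 (27.9%, against 37.5% of all sites). Of the 61, 24 lay above their motif median, a lower share than the 49.5% of all sites. Their median relative to the motif was -0.054. Neither group was tested against the Zic and Sall genes.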

How the data were processed

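Direct RNA libraries of 2 replicates were read with the RNA002 chemistry, per the labels' protocols. Per the file headers, the authors deposited for each position of an Ensembl transcript a motif, a fraction modified and a coverage, which is a count of reads. The submitters' processing notes name mm10. The base caller, aligner, modification caller and listing rule are not given in the sources used here. Of the 6 genes with deposited coordinates, 0 started within 1000 bases of the RefSeq GRCm38.p6 start, so the build of those coordinates is unsettled and RefSeq coordinates were not used. The end of each listed interval was taken as the 1-based position. Replicates were joined on transcript and position (Python 3.11.15, pandas 2.3.3), after checks on simulated data. The genes and related lists were chosen with earlier results of these data known. Per gene, the highest, lowest and deepest sites and pairs within 20 nt are named. No reads were derived from fractions, no p-value was computed and shares were not tested. The minus tables held 0 positions of these genes. Transcript sequences were not used here, and some genes of the related lists are not reported here.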

Additional observations from a re-analysis of the deposited data

How the results depend on the processing

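The results rest mainly on replicate 2 and on Sall2. The number of sites was 36 with the minimum of 20 reads, 14 with 50 reads, 60 without a minimum, 1 with 20 reads in both replicates, and 13 without Sall2, an alternative added after seeing the data. Leaving out a replicate gave 1 to 36 sites, a median fraction of 0.118 to 0.358, 0% to 33.3% of sites at 0.5 or more, a GGACT share of 50% to 100%, and a median relative to the motif of -0.132 to 0.0182. The share at 0.5 or more was 28.6% with 50 reads, 36.5% with 10, 36.7% without a minimum and 36% with 1 transcript per gene. The single site with 20 reads in both replicates gave a median of 0.179, a share of 0%, a GGACT share of 100% and a value relative to the motif of -0.0714. The median relative to the motif was 0.101 with 50 reads, and 0.0880 both with 1 transcript per gene and without Sall2. The sign turned only where 1 site was left. That site, position 4059 of Sall2, lay below its motif median in the main setting as well (-0.0517). For the other shifts the cause was not tested. The median difference between replicates ran from 0.0281 to 0.061 over its alternatives. Values without replicate 1 equal the reported ones by construction. Matching within 5 nt added no site of replicate 1. No paired analysis was possible because the samples form 1 group.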
